A study of Mus musculus with 12 samples.

Results

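The genes described here encode receptors for fast transmission in autonomic ganglia and the enzyme that ends it. They are 8 of the 32289 features counted, chosen by name: the nicotinic acetylcholine receptor subunit genes Chrna3, Chrnb4, Chrna5, Chrnb2 and Chrna7, the serotonin receptor subunit genes Htr3a and Htr3b, and the acetylcholinesterase gene Ache. Each symbol matched 1 feature. Their levels were measured by droplet-based scRNA-seq (Chromium 3′ v1) in the superior mesenteric ganglia (SMG) of 12 mice of the strain 129+Ter/SvJcl, none of which received a treatment. Molecules were counted by unique molecular identifiers (UMIs), short tags that are added when RNA is captured. One group was a single wild-type (WT) mouse aged 3 weeks. The second group was 10 Th-MYCN+/- mice aged 3 weeks, numbered #1 to #10, which are separate animals. The third was a single Th-MYCN+/- mouse aged 6 weeks, whose SMG had been picked because a macroscopic tumor was seen. Th-MYCN+/- mice are hemizygous for a transgene of human MYCN under the rat tyrosine hydroxylase promoter, which is active in sympathetic cells, and the WT mouse lacks it.

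Neurons of sympathetic ganglia receive acetylcholine from preganglionic fibers. Their nicotinic receptors are cation channels of 5 subunits, in which α3 (Chrna3) and β4 (Chrnb4) form the usual ganglionic type, α5 (Chrna5) joins only as an accessory subunit, β2 (Chrnb2) can take the place of β4, and α7 (Chrna7) forms channels by itself. The serotonin receptor 5-HT3 belongs to the same Cys-loop family of channels. Its subunit 5-HT3A (Htr3a) can form a channel alone, whereas 5-HT3B (Htr3b) needs 5-HT3A. Acetylcholinesterase (Ache) splits acetylcholine at the synapse.

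After calling of cells and quality filters, 12014 cells remained, with 618 from the WT mouse, 522 to 1831 from each 3-week-old Th-MYCN+/- mouse and 945 from the 6-week-old mouse. Clusters were formed without the 8 genes and were named from marker genes. The sums used below came from 2730 ganglion-like, 2806 neuroblast-like, 2885 Schwann-like and 529 endothelial-like cells, and 2469 cells stayed unnamed. Ganglion-like cells fell into 3 clusters, in each of which all 19 ganglion markers, such as Npy, Dbh and Th, were met. Mouse #2 stood apart, since 1502 of its 1831 cells were ganglion-like, only 38.7% of its UMIs lay in cells (61.1% to 87.1% in the other mice), and its neuroblast-like and Schwann-like sums held 24 and 7 cells. Libraries held 1147772 to 6388766 UMIs, and 92 barcodes of cells occurred in more than 1 library, with 185 cells. Doublets were not called. Levels are given as UMIs per 1000000 UMIs of a class in a mouse (CPM), as mean ± SD over the 10 Th-MYCN+/- mice aged 3 weeks unless stated otherwise. They are compared for 1 gene between cells and not between genes.

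In the mouse annotation GENCODE vM21 (GRCm38), 5 of the 8 genes lie on chromosome 9. Chrna5 (54980880-55007779, plus strand), Chrna3 (55010111-55026562, minus strand) and Chrnb4 (55028154-55048779, minus strand) are neighbors, with 2331 bases between the first pair and 1591 between the second, and no overlap. Htr3a (48899213-48911099) and Htr3b (48935008-48964990), both on the minus strand, are 23908 bases apart. Chrnb2 is on chromosome 3 (89746195-89764632, minus strand), Ache on chromosome 5 (137287519-137294466, plus strand) and Chrna7 on chromosome 7 (63098692-63212569, minus strand).

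The 250 bases before the RefSeq start (GRCm38.p6) are shown for Chrna3 and Htr3b, which are both higher in ganglion-like cells below and whose windows hold no annotated exon. Capitals mark the E-box CANNTG, the GC box GGGCGG and the homeodomain core TAAT, each on both strands. The windows are chr9:55026563-55026812 and chr9:48964991-48965240, both on the minus strand and written 5′ to 3′.
Chrna3: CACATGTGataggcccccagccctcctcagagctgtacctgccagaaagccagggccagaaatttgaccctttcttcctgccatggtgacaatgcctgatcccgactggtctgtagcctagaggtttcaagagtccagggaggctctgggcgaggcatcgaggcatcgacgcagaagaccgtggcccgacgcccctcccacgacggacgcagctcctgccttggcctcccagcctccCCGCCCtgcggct
Htr3b: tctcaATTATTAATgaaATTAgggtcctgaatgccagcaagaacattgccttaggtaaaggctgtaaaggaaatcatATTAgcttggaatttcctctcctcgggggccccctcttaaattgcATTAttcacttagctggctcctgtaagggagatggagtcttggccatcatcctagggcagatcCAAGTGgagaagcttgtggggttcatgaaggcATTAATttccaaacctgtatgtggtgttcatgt
The Chrna3 window held 2 overlapping E-boxes and 1 GC box, with no TAAT, and 63.2% of its bases were G or C. The Htr3b window held 8 matches of TAAT, some of which overlap, 1 E-box and no GC box, and 44.0% of its bases were G or C. Of 32851 promoter windows of the same length, 66.2% held an E-box, 32.7% a GC box and 54.9% a TAAT, so that none of the 3 is rare. The E-box CACGTG, which MYC proteins can bind and which is 1 of the forms of CANNTG, was in neither window and in 6.02% of all. GATAA (22.6% of all windows) and TTCAGCACC (0.301%) were in neither. Among the windows not shown, those of Ache and Chrna7, which reach into annotated exons, each held 1 CACGTG.

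In the 3-week-old Th-MYCN+/- mice, the mean level of 7 of the 8 genes was highest in ganglion-like cells. Chrna3, Chrnb4, Htr3a, Htr3b and Ache were higher in ganglion-like than in neuroblast-like cells in 10 of 10 mice by their sums, as were 17.0% of all genes tested. Mouse #2 adds little to this count: its neuroblast-like sum of 15678 UMIs held 1 UMI of the 8 genes, and 3 counts in it would be 191 CPM, above its ganglion-like Chrnb4 level of 72.2 CPM. Without #2 the log2 fold changes were 2.54 for Chrna3, 4.20 for Chrnb4, 4.78 for Htr3a, 5.20 for Htr3b and 4.83 for Ache, all called. Beside these, Chrna5 and Chrnb2 were present at low levels, and Chrna7 was close to absent from all classes. The tests summed the UMIs of a class in each mouse and used edgeR's quasi-likelihood test with the mouse as a block and Benjamini-Hochberg adjustment over all genes. Of the 6878 genes tested between ganglion-like and neuroblast-like cells, 31.9% were called higher in ganglion-like cells at an FDR of 0.05. Only 5 of the 8 genes passed the filter on low counts, which keeps a gene that is high in either class, so that the number of them called is no result in itself.

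**Figure D1:**
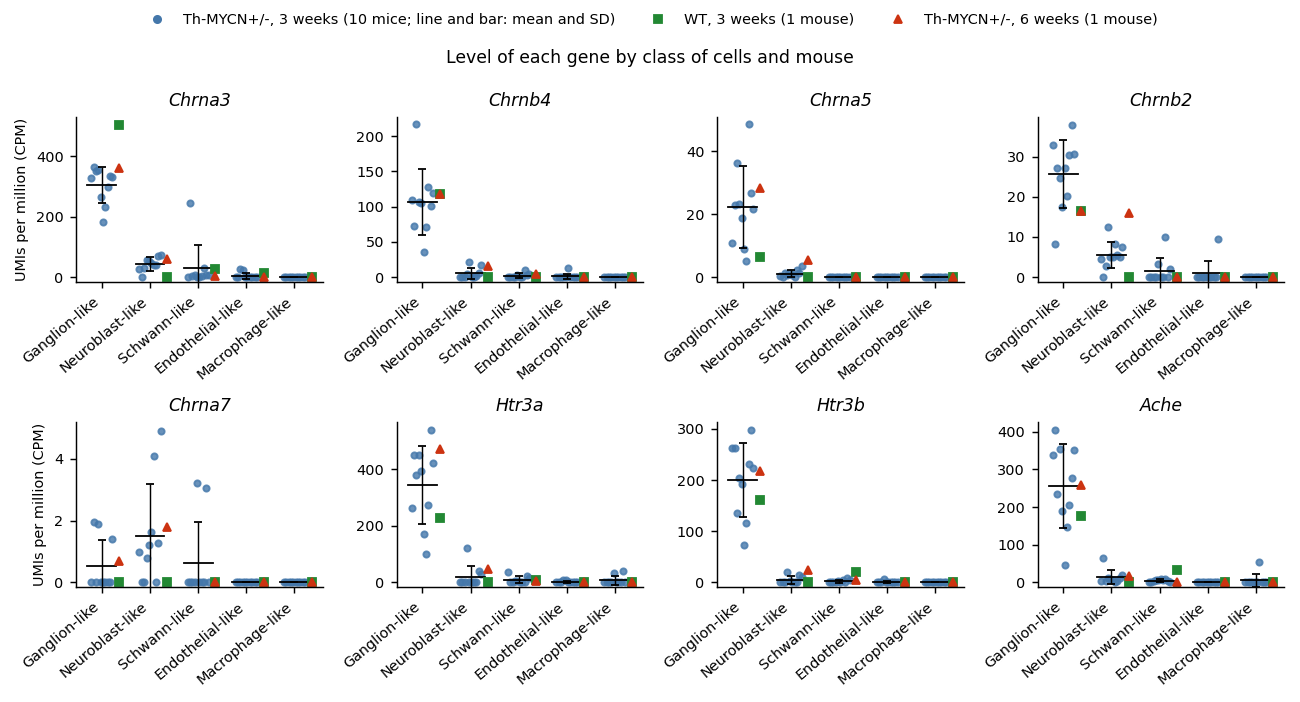
Levels of the 8 genes in UMIs per 1000000 (CPM, linear axis) by class of cells; each blue point is 1 of 10 Th-MYCN+/- mice aged 3 weeks with at least 5 cells of that class, with mean and SD, and the green square and red triangle are the single WT and 6-week-old mice. Ganglion-like cells lie highest for all genes but Chrna7, and the Schwann-like point of Chrna3 at 246.5 CPM is 1 UMI in the 7 cells of mouse #2.

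Chrna3, the α subunit that ganglionic nicotinic receptors need, was at 304 ± 60.2 CPM in ganglion-like cells (n = 10), with a lowest value of 181, a median of 329.9 and a highest of 365. In neuroblast-like cells it was at 44.0 ± 21.9 CPM, with a lowest value of 0, a median of 43.5 and a highest of 74.3. The 0 was mouse #2, whose 24 cells with 15678 UMIs allow up to 235 CPM (95% Poisson limit). The next lowest value was 27.9 CPM, in #1. By these values the mice did not overlap between both classes, although the limit of 235 CPM for #2 lies above the lowest ganglion-like value. The share of all genes without such overlap is not given, so that its lack here and for Chrnb4 and Htr3b is no result in itself. The log2 fold change was 2.56 ± 0.19 (SE), with an adjusted p of 7.07e-11 in edgeR. Of the 8 genes, Chrna3 alone passed the filter in the comparison of neuroblast-like with Schwann-like cells, which are glia. There it was higher by 2.66 ± 0.41 on the log2 scale (edgeR adjusted p = 1.06e-05, higher in 9 of 10 mice), where 35.7% of 5340 genes were called higher. Schwann-like cells held 16 UMIs of Chrna3 among 2415133, and their median level over mice was 5.61 CPM.

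Chrnb4, the partner subunit of α3, was at 106 ± 47.3 CPM in ganglion-like cells, from 36.3 in mouse #6 (26 cells) to 216.5 in mouse #3 (49 cells), with a median of 105.6. In neuroblast-like cells it was at 5.27 ± 7.94 CPM, with 4 mice at 0, among them #2 with its 24 cells. The highest value was 22.1 in mouse #5, so that the classes did not overlap by these values, with the same limit of 235 CPM for #2. On the log2 scale the difference was 4.18 ± 0.42 (SE; edgeR adjusted p = 9.44e-09). Chrna5, the accessory subunit whose gene adjoins Chrna3, was at 22.3 ± 13.0 CPM, from 5.05 to 48.5, against 1.17 ± 1.04 in neuroblast-like cells, where no mouse exceeded 3.44. It rests on 185 and 18 UMIs in all and did not pass the filter. Chrnb2, the other β subunit, was at 25.7 ± 8.50 CPM, from 8.30 in mouse #2 to 37.9 in mouse #9, and at 5.57 ± 3.29 CPM in neuroblast-like cells, with a highest value of 12.4. In mouse #9, 15 of the 24 UMIs lay in 1 ganglion-like cell. Chrnb2 overlapped between the classes through mouse #2, and also missed the filter.

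Without the filter on low counts, both genes passed the test between ganglion-like and neuroblast-like cells. The log2 fold change was 3.76 ± 0.39 (SE) for Chrna5 and 2.01 ± 0.30 for Chrnb2, with edgeR adjusted p = 5.30e-21 and 3.78e-10. These p-values are not comparable with those above, since without the filter that of Chrna3 was 4.92e-30 at a log2 fold change of 2.53. Chrna7, the α7 subunit, held 11 UMIs in 2495 ganglion-like and 20 UMIs in 2543 neuroblast-like cells (Th-MYCN+/- mice, 3 weeks). At 0.525 ± 0.858 and 1.49 ± 1.70 CPM, with 7 and 3 mice at 0, no difference was detectable at this depth (log2 fold change −0.96 ± 0.75, edgeR adjusted p = 0.331 without the filter). Among the classes without neurons, Chrna7 had 2 UMIs in Schwann-like cells and none in endothelial-like or macrophage-like cells.

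Htr3a, the 5-HT3 subunit that can form a channel alone, was at 344 ± 137 CPM in ganglion-like cells, from 101.1 in mouse #7 to 538.6 in mouse #9, with a median of 387. In neuroblast-like cells 4 mice were at 0, among them #2 with its 24 cells. The median was 1.16 and the highest value was 122.5, in mouse #4. That mouse lies above the lowest ganglion-like value, so that the classes overlap, although within each mouse the ganglion-like level was higher. Ganglion-like cells were higher by a log2 fold change of 4.83 ± 0.49 (SE; edgeR adjusted p = 1.40e-08). Htr3b, its partner, was at 199.6 ± 71.8 CPM in ganglion-like cells, from 72.5 in mouse #6 to 298.5 in mouse #9, with a median of 213.5. Neuroblast-like cells had 4.92 ± 7.39 CPM of Htr3b, with 5 mice at 0, again including #2. Their highest value was 20.2, and by these values they did not overlap with ganglion-like cells, again with a limit of 235 CPM for #2. The log2 fold change was 5.19 ± 0.41 (SE; edgeR adjusted p = 2.47e-10).

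Ache, the esterase, was at 255 ± 112 CPM in ganglion-like cells, from 45.3 in mouse #6 to 405.5 in mouse #2, with a median of 256. In neuroblast-like cells it was at 13.5 ± 18.5 CPM, with a median of 7.78. The highest neuroblast-like value, 63.8 CPM in mouse #2, was 1 UMI in 24 cells, and the next was 20.2. The log2 fold change was 4.79 ± 0.26 (SE; edgeR adjusted p = 1.76e-12). All 5 genes kept their call under every alternative run (21 each, which include each mouse left out), with log2 fold changes of 2.48 to 3.08 for Chrna3, 3.97 to 5.60 for Chrnb4, 3.92 to 6.96 for Htr3a, 4.90 to 7.37 for Htr3b and 4.61 to 6.67 for Ache.

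A few cells held nearly all of the Htr3a of the neuroblast-like class. In the 3-week-old Th-MYCN+/- mice, 275 of its 290 UMIs (94.8%) lay in 10 of 2543 cells, compared with 133 of 607 UMIs (21.9%) for Chrna3. Clustering of log-normalized counts named 15 neuroblast-like cells ganglion-like. Their median depth was 33060 UMIs, compared with 4363 for the remaining cells of that class. They held 254 UMIs of Htr3a, 62 of 74 of Htr3b, 51 of 73 of Chrnb4 and 52 of 107 of Ache, but 132 of 607 of Chrna3. They also held 3031 of 4182 UMIs of Npy, a ganglion marker, and none of the 4187 UMIs of the MYCN transgene. Whether they were doublets was not tested. With only the cells that both clusterings named alike, a set of cells chosen after these values were seen, the neuroblast-like level was 2.66 CPM for Htr3a, 0.955 for Htr3b, 1.82 for Chrnb4, 4.11 for Ache and 37.4 for Chrna3. Of Chrna3, most of the neuroblast-like level was thus left, and its difference from Schwann-like cells was 3.09 on the log2 scale (edgeR adjusted p = 2.79e-07).

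Chrna3 in neuroblast-like cells was also set out by phase of the cell cycle, which was called per cell from published S and G2M genes. It was at 73.2 ± 57.1 CPM in cells called G1 (n = 10), 44.9 ± 19.1 in S (n = 10) and 28.4 ± 7.65 in G2M (n = 9). The SDs overlap, the 15 cells above are included, and no test was run.

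Against Schwann-like cells, 3 of the 8 genes passed the filter, and 35.3% of 3127 genes were called higher in ganglion-like cells. The log2 fold change was 5.24 ± 0.33 (SE) for Chrna3, 5.00 ± 0.32 for Htr3a and 5.79 ± 0.35 for Htr3b, with edgeR adjusted p = 5.13e-13, 7.47e-13 and 2.60e-13. Each was higher in 10 of 10 mice by their sums, as were 22.7% of all genes tested. Mouse #2 adds little to this, since 3 counts in its 7 Schwann-like cells would be 739.5 CPM, above its ganglion-like levels of these genes. Without the filter, Chrnb4 and Ache were also higher than in Schwann-like cells, by 5.63 ± 0.43 and 5.74 ± 0.37 (edgeR adjusted p = 4.19e-37 and 6.41e-51, again not comparable with the filtered test). Schwann-like cells held 24 UMIs of Htr3a, 7 of Htr3b and 12 of Ache. No UMI of any of the 8 genes was found in NKT-like, fibroblast-like or myofibroblast-like cells at 3 weeks in Th-MYCN+/- mice, among 31582, 79458 and 105146 UMIs. Macrophage-like cells held 3 UMIs of Htr3a and 1 of Ache. Below ganglion-like and neuroblast-like cells, the order of classes therefore rests on a few UMIs and is not given.

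The share of cells with a UMI was compared after every cell had been thinned to 500 UMIs, because median depth was 1150 UMIs in ganglion-like and 4467.5 in neuroblast-like cells. Thinned, 326 of 2060 ganglion-like cells had a UMI of Chrna3, which is 15.8% (95% Clopper-Pearson interval 14.3 to 17.5). Of 2481 neuroblast-like cells 2.14% (1.60 to 2.79) had one, and of 1821 Schwann-like cells 0.110%. Of 303 endothelial-like cells 0 had one, which allows up to 1.21%, and this class was taken as the background. Whether it lacks the gene was not tested, and before thinning 4 of 431 endothelial-like cells had a UMI of Chrna3. The neuroblast-like share of Chrna3 lies above this background. For Htr3a the shares were 16.2%, 0.161% and 0.439% in ganglion-like, neuroblast-like and Schwann-like cells. For Ache they were 16.3% and 0.363% in ganglion-like and neuroblast-like cells, for Htr3b 10.5% and 0.0806%, and for Chrnb4 4.42% and 0.161%. These neuroblast-like shares lie below the upper limit of 1.21% that 0 of 303 endothelial-like cells allows, so that at this depth they cannot be told from background. Chrna5, Chrnb2 and Chrna7 had a UMI in 0.825% (0.481 to 1.32), 0.874% (0.519 to 1.38) and 0.0485% of thinned ganglion-like cells. These shares are also below that limit, which is wide because only 303 endothelial-like cells were counted. Of the 1821 Schwann-like cells, 0 had a UMI of Chrna5 (up to 0.202%) and 0.110% had one of Chrnb2 (up to 0.396%). For Chrna5 and Chrnb2 the intervals of pooled ganglion-like and Schwann-like cells did not overlap, but they hold no spread between mice. Of the 17 thinned ganglion-like cells with a UMI of Chrna5, 11 came from mouse #2. Intervals cover counting error only. Mouse #2 gave 1392 of the 2060 ganglion-like cells but 9 of the 2481 neuroblast-like cells, so that the pooled ganglion-like shares lean on this mouse. Over the 10 mice the median ganglion-like share was 15.1% for Chrna3 (6.25 to 31.0) and 15.1% for Htr3a (0 to 26.9). It was 12.5% for Ache (0 to 26.7), 8.13% for Htr3b (0 to 11.3) and 4.47% for Chrnb4 (0 to 14.8). For Chrna5 and Chrnb2 the median share was 0 (0 to 3.70%) and 0.216% (0 to 3.85%), so that no difference from Schwann-like cells is read over mice. Before thinning, the ganglion-like shares were 39.0% for Chrna3, 31.6% for Htr3a, 38.5% for Ache, 26.1% for Htr3b and 16.8% for Chrnb4.

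**Figure D2:**
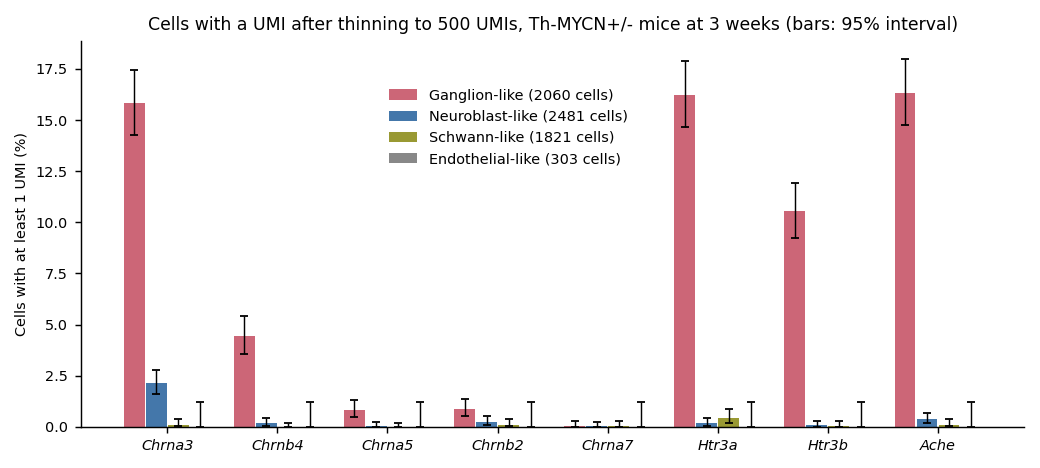
Percent of cells with at least 1 UMI of each gene after thinning to 500 UMIs (y axis, from 0), for 4 classes of cells pooled over the Th-MYCN+/- mice aged 3 weeks; error bars are 95% Clopper-Pearson intervals. Ganglion-like bars reach 15.8% for Chrna3, 16.2% for Htr3a and 16.3% for Ache, and the highest neuroblast-like bar is that of Chrna3, at 2.14%, with the others at most 0.363%. Of the 2060 ganglion-like cells, 1392 came from mouse #2.

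Free RNA also carried these genes. Barcodes of at most 100 UMIs in the 3-week-old Th-MYCN+/- mice held 790 UMIs of Chrna3, 793 of Htr3a and 1004 of Ache, with medians over mice of 137.5, 133 and 162 CPM. The estimated share of free RNA in ganglion-like sums of these mice ran from 9.83% in #3 to 58.8% in #6. After subtraction of an estimate of free RNA from each sum, all tested differences between ganglion-like cells and the other classes were still called. For neuroblast-like cells of mouse #2 and of the WT mouse the estimate came to 100%, so that those sums carry no value of their own.

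The 3 conditions were compared by position only, because 2 of them, WT and 6 weeks, are 1 mouse each, which allows no test. In ganglion-like cells the 6-week-old mouse lay between the lowest and highest of the 10 younger Th-MYCN+/- mice for all 8 genes, with 362 CPM of Chrna3, 118 of Chrnb4, 28.2 of Chrna5, 16.5 of Chrnb2, 471 of Htr3a, 219 of Htr3b and 259 of Ache. The WT mouse, with 88 ganglion-like cells, lay within the range for 7 genes, at 118 CPM of Chrnb4, 6.55 of Chrna5, 16.4 of Chrnb2, 226 of Htr3a, 160.3 of Htr3b and 177 of Ache. Its Chrna3 level of 504 CPM (95% Poisson interval 428 to 590) was above all 10 mice. Chrna7 held 0 UMIs in WT and 1 UMI at 6 weeks, and Chrna5 held 2 UMIs in WT, so that these positions carry little. The share of all genes that lie within such ranges is not given here. A lack of change is therefore not read from these positions.

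The high WT level of Chrna3 came from 1 cell. That cell held 67 of the 154 UMIs, which is 1.86% of its 3607 UMIs, whereas no other cell of the 12 mice held more than 39. It had no UMI of Chrnb4, Chrna5 or Htr3b, 4 of Ache and 2 of Htr3a, and its most frequent RNAs were mt-Nd1 (95 UMIs) and Igsf8 (77 UMIs). Without it, WT Chrna3 was at 288 CPM (231 to 355), within the range of 181 to 365. Stricter limits on cells (500 genes or more, mitochondrial UMIs up to 5%) left WT at 268 CPM, also within the range; this cell had 5.30%. In neuroblast-like cells the WT mouse had 34 cells with 12836 UMIs and no UMI of any of the 8 genes, where 3 counts would be 234 CPM.

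In the tumor-bearing SMG of the 6-week-old mouse, the 229 neuroblast-like cells had Chrna3 at 60.05 CPM (48.9 to 73.0), within the range of the younger mice. Chrnb2 was at 16.0 CPM (10.6 to 23.4), above the highest of these 10 mice (12.4, in #4), and Chrna5 at 5.35 CPM (2.45 to 10.2), above the highest (3.44, in #10), with 27 and 9 UMIs. The Poisson intervals of these sums overlap with those of the highest 3-week-old mice (7.09 to 20.1 for Chrnb2 and 1.39 to 7.10 for Chrna5). Htr3b was at 24.97 CPM (18.0 to 33.8) against at most 20.2 (13.2 to 29.5 in #4), and Htr3a at 48.8 CPM, within the range. The 42 UMIs of Htr3b lay in 4 of the 229 cells and the 82 UMIs of Htr3a in 6, whereas the 27 UMIs of Chrnb2 lay in 23.

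Within the ganglion-like class, the genes differed in how they were spread over cells. This was examined in the 327 ganglion-like cells from Th-MYCN+/- mice aged 3 weeks with at least 5000 UMIs, each thinned to 5000; 131 of them came from mouse #4 and 64 from #10. These cells, the split below and the other genes named with it were chosen after the values had been seen, so that they are a description without a test. Chrna3 had a UMI in 79.2% of the cells, and its variance over cells was 1.44 times the mean. Chrnb4 had a UMI in 40.1%, with a ratio of 0.989, which is what counting alone gives for an even level. Htr3a had a UMI in 50.2% of the cells, but 10.7% held 6 or more, up to 22, and the variance was 4.77 times the mean. For Htr3b and Ache, with a UMI in 45.6% and 57.8%, it was 2.88 and 2.43 times the mean. The 58 such cells of the 6-week-old mouse gave 4.70 for Htr3a and 1.18 for Chrna3, and the 15 cells of the WT mouse 3.40 and 1.25.

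**Figure D3:**
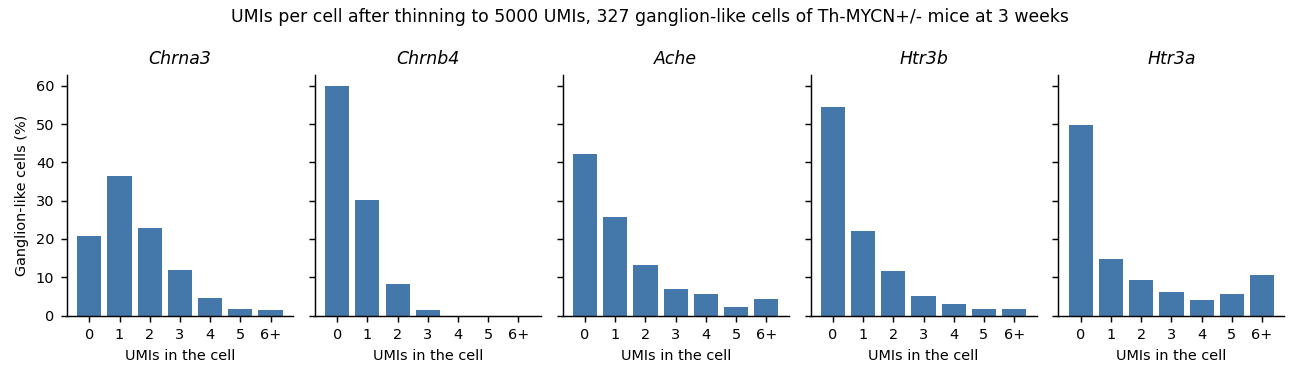
Percent of 327 ganglion-like cells (y axis) by their number of UMIs of each gene after thinning to 5000 UMIs (x axis, 6+ stands for 6 or more), Th-MYCN+/- mice aged 3 weeks. Chrna3 peaks at 1 UMI with 20.8% of cells at 0, whereas Htr3a has 49.8% at 0 and 10.7% in the bin that pools 6 or more.

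Htr3a and Htr3b went together from cell to cell. Over the 327 cells Spearman's rho was 0.579, and within the 7 mice with at least 10 such cells it was positive in each, from 0.378 to 0.911. It was 0.369 for Htr3b with Ache and 0.275 for Htr3a with Ache, positive within 7 of 7 mice for both pairs. For Chrna3 it was 0.175 with Ache (positive within 6 of 7 mice), 0.116 with Htr3b, 0.0556 with Chrnb4 and 0.0434 with Htr3a, each with both signs among the mice. In ganglion-like cells thinned to 500 UMIs, a depth at which few molecules are seen, 50 of 2060 cells had UMIs of both Htr3a and Htr3b (2.43%) and 10 had both Chrna3 and Chrnb4 (0.485%). Of cells with Htr3a, 15.0% also had Htr3b, and of cells without it 9.68%. Of cells with Chrna3, 3.07% had Chrnb4, and of cells without it 4.67%; at 1000 UMIs this turned to 8.56% and 7.54%, so that no direction is read from it. For Htr3a with Htr3b the shares at 1000 UMIs were 26.3% and 16.3%.

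The deep ganglion-like cells were then split by whether a UMI of Htr3a was left after thinning, and levels were taken from all their UMIs, in 4 Th-MYCN+/- mice aged 3 weeks that had at least 5 cells on each side (#4, #5, #9 and #10). Htr3b was at 293, 334.5, 423.5 and 347 CPM in the cells with Htr3a of these mice, and at 67.7, 23.2, 126 and 69.9 CPM in those without. The means were 349.5 ± 54.4 and 71.7 ± 42.2 CPM, and the mice did not overlap. Ache was at 347 ± 105 and 207 ± 48.8 CPM, higher with Htr3a in 4 of 4 mice, by 194 against 189 CPM in #5, with overlap between mice. Chrna3 (336 ± 71.3 and 308 ± 27.7 CPM), Chrnb4 (102 ± 19.1 and 119 ± 25.3) and Chrna5 (24.6 ± 5.37 and 22.8 ± 5.66) overlapped between mice. They were higher with Htr3a in 3, 2 and 2 of the 4 mice. The cells with Htr3a were also deeper in each mouse, with medians of 18680 against 14240 UMIs in #4 and 15540 against 15490 in #9.

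Other genes were set against each other in the same split. Gal, which encodes the neuropeptide galanin, had 219, 115, 362 and 189 CPM in cells with Htr3a and 1700, 1381, 1605 and 1567 CPM in cells without, so that it ran opposite to Htr3a in each mouse. Thy1, a surface glycoprotein of neurons, was at 132 ± 27.4 and 499 ± 155 CPM. Npy, the transmitter peptide of many sympathetic neurons, was at 12160 ± 2695 and 8910 ± 1544 CPM, and Th, the first enzyme of catecholamine synthesis, at 1501 ± 526 and 1390 ± 395 CPM. Npy was higher with Htr3a in 4 of the 4 mice, but not in the WT mouse (9487 with and 10840 without). Th was higher with Htr3a in only 1 of the 4 mice, #9 (2059 against 1401 CPM). H2-K1, a class I histocompatibility gene, was at 262 ± 157 and 70.2 ± 21.8 CPM. The transgene was at 1.70 ± 1.32 and 2.18 ± 2.04 CPM. In the WT mouse Htr3b was at 253 CPM with Htr3a (5 cells) and 91.6 without (10 cells), and Gal at 233.5 and 3815 CPM. In the 6-week-old mouse they were at 343 and 36.1 CPM, and 331 and 2141 CPM.

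**Figure D4:**
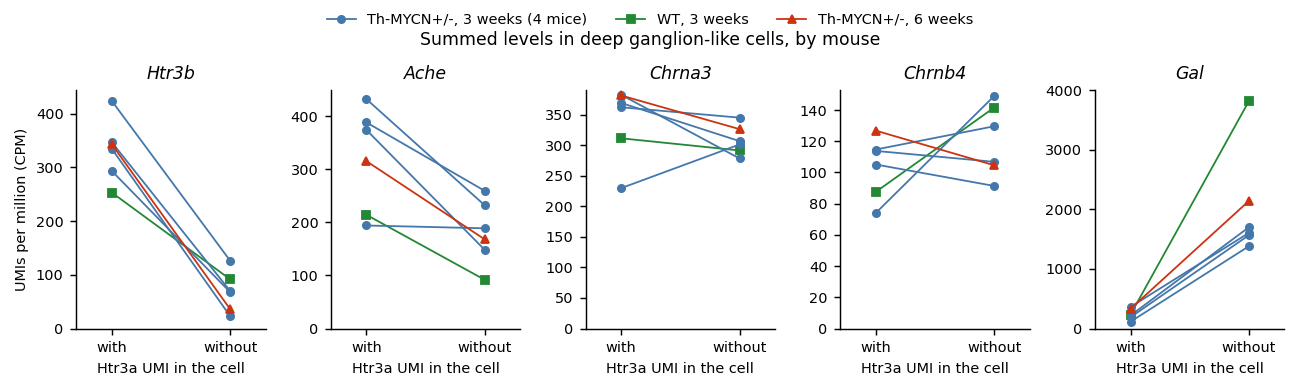
Summed levels (CPM, linear axis from 0) of 5 genes in ganglion-like cells of at least 5000 UMIs, split by a UMI of Htr3a; each line joins both sets of cells of 1 mouse. Htr3b falls and Gal rises from cells with to cells without Htr3a in all 6 mice, while lines of Chrna3 and Chrnb4 cross.

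The 3 clusters of ganglion-like cells were set side by side, without a test. In the cluster of 399 RNA-rich cells (median 14357 UMIs), which was led by Gal, the pooled level of the 3-week-old Th-MYCN+/- mice was 402 CPM for Htr3a, 195 for Htr3b and 257 for Ache. In the cluster of 1380 cells (median 1293 UMIs), of which 1203 came from mouse #2, it was 526, 288.5 and 410.4 CPM. In the third, of 951 cells (median 530 UMIs), it was 334, 228 and 532.5 CPM. The Ache level of the third cluster ranged from 54.1 CPM in mouse #6 to 823 in #10. Chrna3 was at 319.5, 339.9 and 420.3 CPM in these clusters. Most ganglion-like cells of the WT and 6-week-old mice lay in the third cluster (52 of 88 and 80 of 147). This also held for several younger mice, such as #10 (117 of 202). Most UMIs of the sums, however, came from the RNA-rich cluster, with 251738 of 305589 in WT and 1259558 of 1454449 at 6 weeks. In mouse #2, 1824276 of 2049493 UMIs came from the cluster of 1380 cells, so that its sum rests on another mix.

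No difference of the 8 genes was called by RNA content within the class. Each mouse's ganglion-like cells were split at its median UMI count, and the sums above and below it were compared over 10 mice. Only 0.373% of 1877 genes were called in edgeR, and of the 5 genes that passed the filter none was called, with 1 of them (Ache) at an unadjusted p under 0.05. Ache differed by −0.46 ± 0.21 (SE, above minus below the median; unadjusted p = 0.0359, edgeR adjusted p = 0.654; higher above the median in 5 of 10 mice). The others were at −0.061 ± 0.19 for Chrna3, 0.28 ± 0.26 for Chrnb4, 0.23 ± 0.18 for Htr3a and −0.027 ± 0.22 for Htr3b, with adjusted p from 0.922 to 0.996. DESeq2 called none of the 5 either. The number of genes called was 7 and varied with single mice, from 25 without #2 to 3, 4 and 2 without #3, #4 and #5, and 0 without the block on the mouse.

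Other genes of cholinergic and serotonergic transmission were taken from lists chosen with earlier results of these data known. Of 11 other nicotinic subunit genes, none passed the filter, and they held at most 16 UMIs in a class (Chrna4, neuroblast-like). Of 6 genes of acetylcholine synthesis, transport and breakdown, 1 was tested and was lower in ganglion-like cells, where 36.2% of all genes were called lower. This was Prima1, which anchors acetylcholinesterase in the membrane, at 7.19 ± 6.21 CPM in ganglion-like and 72.2 ± 32.4 CPM in neuroblast-like cells (log2 fold change −3.36 ± 0.29, edgeR adjusted p = 9.07e-10, lower in 9 of 10 mice). It thus ran opposite to Ache. Colq, which codes for the collagen tail of the same enzyme, held 53 UMIs in ganglion-like and 2 in neuroblast-like cells and was not tested. The synthetic enzyme Chat had 1 and 2 UMIs.

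Of 10 listed chaperones and modulators of nicotinic receptors, 9 were among the features and 7 were tested; 3 were higher and 3 lower in ganglion-like cells, with a median log2 fold change of −0.22 against −0.084 over all genes tested. Lynx1, a membrane-anchored modulator of nicotinic receptors, was at 36.1 ± 15.6 and 1.73 ± 1.73 CPM in ganglion-like and neuroblast-like cells (4.02 ± 0.37, edgeR adjusted p = 2.69e-09). The related genes Ly6h and Lypd1 went the other way. Ly6h was at 4.26 ± 3.05 and 91.1 ± 35.2 CPM (−4.38 ± 0.29, edgeR adjusted p = 2.08e-11), and Lypd1 at 11.4 ± 25.5 and 109 ± 59.1 CPM (−3.74 ± 0.44, edgeR adjusted p = 1.34e-07). Vsnl1, a neuronal calcium sensor, was at 89.3 ± 43.5 and 12.6 ± 6.47 CPM (2.48 ± 0.24, edgeR adjusted p = 4.79e-09).

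Of 5 muscarinic receptor genes, 1 was tested, Chrm1, at 39.0 ± 26.1 CPM in ganglion-like and 1.34 ± 1.52 CPM in neuroblast-like cells (4.40 ± 0.41, edgeR adjusted p = 4.02e-09). Of 17 other serotonin genes, the 2 tested were both higher in ganglion-like cells, where 31.9% of all genes tested were. These were the monoamine oxidases Maoa (728 ± 272 against 187 ± 62.4 CPM; 1.82 ± 0.16, edgeR adjusted p = 2.13e-09) and Maob (44.3 ± 16.8 against 9.65 ± 5.00 CPM; 1.73 ± 0.22, edgeR adjusted p = 4.48e-07). They also break down catecholamines. None of the 12 other serotonin receptor genes exceeded 29 UMIs in a class (Htr1d). Of 24 other Cys-loop channel genes, 2 were tested and 1 was higher, the glycine receptor β subunit Glrb, at 63.1 ± 22.1 and 18.0 ± 16.5 CPM (2.13 ± 0.21, edgeR adjusted p = 1.13e-08). Of 7 ATP-gated channel genes, P2rx2 was tested and was higher, at 37.3 ± 11.7 and 2.98 ± 3.40 CPM (3.35 ± 0.35, edgeR adjusted p = 1.78e-08). Each of Chrm1, Maoa, Maob, Glrb, P2rx2, Lynx1 and Vsnl1 was higher in 10 of 10 mice, as were 17.0% of all genes tested.

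**Figure D5:**
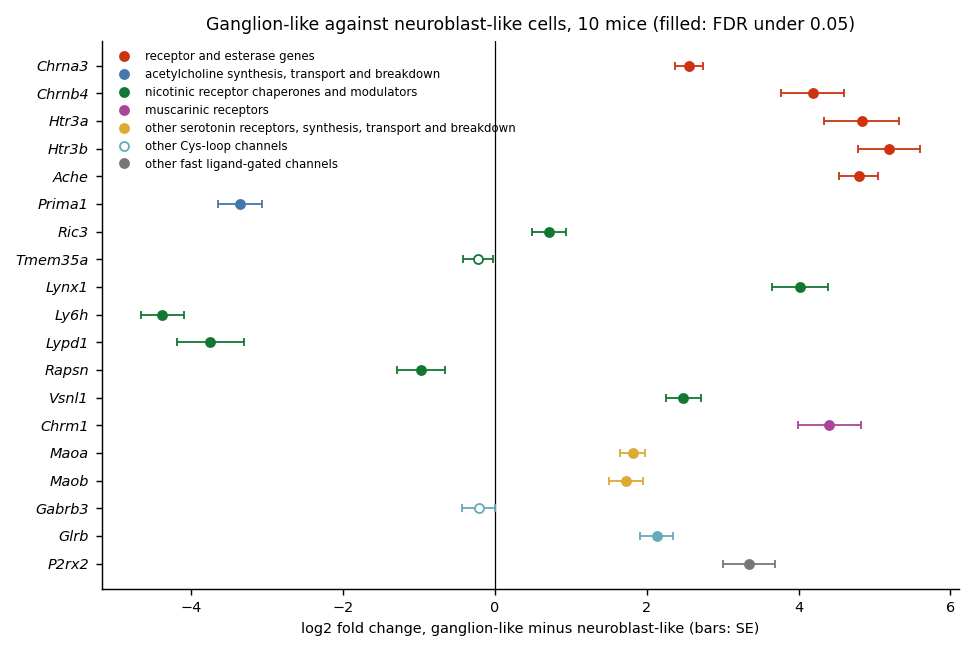
Log2 fold change of ganglion-like minus neuroblast-like cells (x axis) with SE, 10 Th-MYCN+/- mice aged 3 weeks, for each of the 8 genes and of the listed genes that passed the filter; filled points have an FDR under 0.05. Ache lies at 4.79 and its membrane anchor Prima1 at −3.36, and Lynx1 lies at 4.02 with Ly6h at −4.38.

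The genes whose levels were most like those of Chrna3, Htr3a and Ache were sought over 42 sums of a class in a 3-week-old Th-MYCN+/- mouse of at least 20 cells, among 10813 genes on the log2(CPM + 10) scale. For Chrna3 they were Nrsn2, Rit2 and Celf6 (Pearson's r = 0.967, 0.966 and 0.966). For Ache they were Pacsin1, Eno2 and A830018L16Rik (0.961, 0.953 and 0.947). For Htr3a they were Tmem151b, Hpcal4 and Mrap2 (0.922, 0.914 and 0.912). The sums share libraries and fall into classes, with 10 of ganglion-like and 10 of neuroblast-like cells, so that no p is given.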

How the data were processed

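The authors deposited raw counts of UMIs per gene and barcode from 12 libraries, counted by Cell Ranger 3.0.2 per the file headers on mm10 with the MYCN transgene, without selection of cells; the release of the annotation was not given in the sources read. Cells were called with an own implementation of EmptyDrops (FDR 0.01; barcodes of at most 100 UMIs as the empty profile, 10000 draws), which on simulated data called 93.0% of 300 shallow cells and 0.200% of 1500 empty droplets. Cells with fewer than 200 genes, over 60% ribosomal or over 10% mitochondrial UMIs were left out.

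Clustering used sctransform 0.4.2 and Seurat 5.3.0 (2000 variable genes, 30 components, resolution 0.5) in R 4.3.3 without the 8 genes, the listed genes and the transgene (91 features left out). Clusters were named from marker lists by at least 3 markers, and names could differ from those of the study. Counts were summed per mouse and class (at least 5 cells), passed through filterByExpr, normalized by TMM, and entered edgeR 4.0.16, with the mouse as a block because both sums come from 1 animal. The deviations of the 2 sums of a mouse correlated at −0.012 to 0.282 between ganglion-like and neuroblast-like cells and at 0.0937 to 0.577 between ganglion-like cells above and below the median UMI count. On simulated data with 200 genes changed by 1.5 on the log2 scale, the test called 174 of 183 changed genes that passed the filter between ganglion-like and neuroblast-like cells, with 8 false calls among 7270 genes. Members and lists were chosen with earlier results of these data known. Named were the 8 genes, up to 4 genes per list that passed the test in ganglion-like against neuroblast-like cells, and the 3 most alike genes; others were chosen after their values were seen. Alternatives were DESeq2 1.42.0, no filter on low counts, no block, each mouse left out, at least 10 cells per sum, 2 stricter filters on cells, log-normalized clustering, resolutions 0.2 and 1.0, subtraction of free RNA, other thinning depths and, chosen after seeing the data, cells named alike by both clusterings. Sums and figures were made in Python 3.11.15 (scipy 1.17.1, numpy 2.4.6, matplotlib 3.10.9, pandas 2.3.3). Promoter sequences came from RefSeq, where 7 of the 8 genes had an entry.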

Additional observations from a re-analysis of the deposited data

Results flagged for a closer look

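In 16 groups of 10 mice (8 genes in 2 classes), 3 held 1 mouse far from the others. A chance rate of about 1 in 20 cannot be applied here, because the groups share the same mice and differ widely in counts. Whether 3 of 16 is more than chance gives was therefore not tested. Chrnb4 in ganglion-like cells was at 216.5 CPM in mouse #3, against 36.3 to 127 CPM in the other mice, from 24 UMIs in 49 cells (95% Poisson interval 139 to 322). Htr3a in neuroblast-like cells was at 122.5 CPM in mouse #4, against at most 41.3 CPM elsewhere; its 158 UMIs lay in 6 cells. Ache in neuroblast-like cells was at 63.8 CPM in mouse #2, against at most 20.2 CPM, and is 1 UMI in 24 cells (1.61 to 355).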

How the results depend on the processing

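The called differences of the 8 genes between classes kept their direction and call under every alternative that gave a value. The correlation of paired sums did not exceed 0.1 in every mouse, but both sums come from 1 animal, so the block was kept; without the replicate block 4735, 2046 and 3607 genes were called in the 3 comparisons of classes, against 4687, 2133 and 3642 with it, and 0 of 1877 (edgeR) between ganglion-like cells above and below their median UMI count, against 7. In that split, 0 genes were also called among cells of at least 500 UMIs, under the limit of 500 genes and 5% mitochondrial UMIs and after subtraction of free RNA, and 2 to 25 when 1 mouse was left out. At an unadjusted p under 0.05, these 4 settings gave 118 genes without the block, 91, 110 and 82 genes, against 132 in the reported test, and DESeq2 called 8 genes. Without the filter on low counts, 7823, 6832 and 7922 genes were called between classes and 113 in the split, among 16989 genes tested in it; the cause was not tested. In the split, the sign of a gene that was not called turned in 12 cases: for Chrna3 to 0.34 without the filter and 0.016 with log-normalized clustering (−0.15 to 0.056 with 1 mouse left out), for Htr3b to 0.31 without the filter, 0.14 with at least 500 UMIs and 0.45 with the stricter limits (−0.23 to 0.061), and for Ache to 0.023 with the stricter limits. The cause was not tested.

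Shares of ganglion-like cells with a UMI depend on depth. At 1000 UMIs they were 28.3% for Chrna3, 2.08% for Chrna5, 0.208% for Chrna7, 28.7% for Htr3a, 19.2% for Htr3b and 29.3% for Ache. Without thinning they were 39.0% for Chrna3, 16.8% for Chrnb4, 5.85% for Chrna5, 5.41% for Chrnb2, 0.441% for Chrna7, 31.6% for Htr3a, 26.1% for Htr3b and 38.5% for Ache. At 1000 UMIs, UMIs of both genes were in 2.43% of cells for Chrna3 with Chrnb4, 7.55% for Htr3a with Htr3b, 8.11% for Chrna3 with Htr3a, 8.18% for Chrna3 with Ache and 9.63% for Htr3a with Ache. Chrnb2, Chrnb4, Chrna5 and Ache missed the filter in some comparisons, so that their tests there exist only under some alternatives. Chrnb2 was tested against neuroblast-like cells under 8 of them and was called in each, with log2 fold changes of 1.95 to 2.10. Without #2 and with the filter kept, it was at 2.025 (edgeR adjusted p = 2.44e-06). Chrna7 is limited by depth in all classes.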

Other observations

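Cells that stayed unnamed also carried the genes. In the 3-week-old Th-MYCN+/- mice these 2314 cells had 82.2 ± 38.9 CPM of Chrna3, 34.5 ± 25.9 of Ache and 66.04 ± 96.9 of Htr3a, and thinned to 500 UMIs 2.68% of 1232 cells had a UMI of Chrna3. Most belong to a cluster of 2214 cells with a median of 497 UMIs that met 1 of 19 neuroblast markers. A smaller unnamed cluster of 182 cells was led by Vip and Cartpt and met 9 of 19 neuroblast markers. In it Chrna3 was at 69.9 CPM and had a UMI in 5.96% of the thinned cells, while Htr3a was at 4.66 CPM and Htr3b at 1.55 CPM, each with at most 3 UMIs. This was a description over pooled cells, without a test.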
